A study of Oryza sativa with 12 samples.

Results

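The leaves of rice plants that overexpress the aquaporin gene OsPIP2-7 (OE) were compared directly with leaves of plants in which the same gene was knocked out (KO), across all genes. Of the 12 RNA sequencing libraries of the series, the 4 that the sample titles assign to these lines were compared, 2 per line. The plants were Pusa Basmati-1, a fragrant indica cultivar of Oryza sativa, and leaves were collected 2.5 months after the plants had been moved to a greenhouse with 16 h light, 8 h dark, 24 °C and 70% relative humidity. The OE plants carry a transgene in which the maize ubiquitin promoter, which is active in most tissues, drives OsPIP2-7 with a 3xFLAG tag, in addition to their own copy of the gene. The KO plants were made with CRISPR-Cas9 and are free of T-DNA. The 2 wild-type (WT) libraries that served as controls for these lines are given as levels only. The labels do not say how many transgenic or edited lines, plants or leaves a library holds, nor whether replicate libraries stem from different plants. A p-value here therefore reflects the scatter of these libraries alone, and that scatter could be technical. The comparison asks how leaf transcript levels differ between the lines with the most and the least OsPIP2-7 transcript.

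Plasma membrane intrinsic proteins (PIPs) are the aquaporins of the plasma membrane. They assemble as tetramers in which each subunit forms its own pore, and PIP2 proteins conduct water well, while many PIP1 proteins reach the plasma membrane only together with a PIP2 partner. In leaves they set how readily water passes from the veins through living cells to the sites of evaporation, and some PIPs also pass hydrogen peroxide or carbon dioxide. Tonoplast intrinsic proteins (TIPs) are the aquaporins of the vacuole, and NIPs carry silicic acid, boric acid and other small solutes.

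The 4 libraries held 32747558 to 35844559 counts over 38978 annotated genes, of which 23627 passed the filter on low counts and were tested. Levels are CPM (counts per 1000000 counts of the TMM-scaled library), and a gene was called when its Benjamini-Hochberg adjusted p from edgeR's quasi-likelihood test was below 0.05. Replicates lay close together, with a biological coefficient of variation of 2.73% in OE and 2.61% in KO. The leaf label was matched by CAB1R, an antenna protein gene of the chloroplast, at 3477 to 6394 CPM in the 4 libraries. The gene with the most counts in each was the metallothionein gene OsMT3a, with 4.52% to 6.44% of counts.

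OsPIP2-7 itself (Os09g0541000, IRGSP-1.0 chromosome 9, 21310132 to 21311479, plus strand, 2 exons) stood at 1732 and 1625 CPM in the OE libraries, at 159.5 and 154.6 CPM in the KO libraries, and at 682.2 and 689.4 CPM in WT. The groups did not overlap: both OE libraries were the highest of the 6 and both KO libraries the lowest. OE exceeded KO by 3.42 on the log2 scale (SE 0.03, 10.7-fold, edgeR adjusted p = 2.57e-50). The authors' deposited table gives the same direction but a smaller difference, with a log2 of KO over OE of -2.47 and a q-value of 0.000270. In the counts a multiply aligned read was added to every gene it hit, and how that table treats such reads is not given in the sources used here, so the size of the fold is less certain than its SE. The counts sum over the gene, so transcript of the transgene and of the plant's own copy cannot be told apart, and transcript in KO carries no information on whether its reading frame is intact. Per kb of exon, OsPIP2-7 ranked 1st of the 11 PIP genes tested in OE (1346 ± 60.5 CPM per kb, SD, n = 2), 3rd in WT (550.0 ± 4.10) and 4th in KO (126 ± 2.79).

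The other PIP genes differed far less between the lines. Of 13 annotated PIP genes, 11 were tested, 4 were higher in OE and 6 higher in KO, where 58% of all genes tested were called in either direction, 28.4% higher in OE and 29.6% higher in KO. The median log2 difference of the 11 was -0.14, against 0.00158 for all genes tested. OsPIP2-8 and the PIP2-like gene Os10g0481100 had 0 counts in all 6 libraries of the experiment.

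Among the members higher in KO, OsPIP2-2 stood at 36.8 and 34.3 CPM in OE and at 66.3 and 65.2 CPM in KO, with 125.5 and 125.9 CPM in WT. Its OE libraries were the lowest of the 6, and the OE to KO difference was -0.89 (SE 0.05, edgeR adjusted p = 1.60e-21). OsPIP1-3, a PIP1 gene, stood at 111.5 and 108.6 CPM in OE, at 182 and 171 CPM in KO and at 103.5 and 107.5 CPM in WT, a log2 difference of -0.68 (SE 0.04, edgeR adjusted p = 3.42e-21). Here the KO libraries were the high ones. OsPIP2-1, the other aquaporin that the study altered in separate lines, was at 114.6 and 114.4 CPM in OE and at 149.3 and 151.4 CPM in KO (log2 -0.39, SE 0.03, edgeR adjusted p = 9.67e-14). OsPIP2-3 (log2 -0.65) and OsPIP1-2 (log2 -0.18) were also higher in KO. The authors' deposited table has the same direction for OsPIP2-1, OsPIP2-3 and OsPIP1-2, with log2 values of KO over OE of 0.16, 0.17 and 0.28, but none passed there (q-values 0.691, 1.0 and 0.201). OsPIP1-1 passed narrowly at 358.7 and 350.3 CPM in OE against 371.6 and 369.0 CPM in KO (log2 -0.06, SE 0.03, edgeR adjusted p = 0.0453), and lost its call under several alternatives.

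Beside the target, 3 PIP genes were higher in OE. OsPIP2-6 was at 36.4 and 35.8 CPM in OE and at 27.1 and 25.9 CPM in KO (log2 0.45, SE 0.06, edgeR adjusted p = 4.97e-09). OsPIP2-4 (log2 0.81) and OsPIP2-5 (log2 0.90) were expressed at under 5 CPM in every library. For OsPIP2-5 the authors' deposited table has the opposite sign without passing its test, a log2 of KO over OE of 0.20 at a q-value of 0.796. Os07g0448400, a PIP2-like gene in the same cluster on chromosome 7, gave a log2 difference of -0.14 (SE 0.13) that did not pass (edgeR adjusted p = 0.403), and it too has the opposite sign in the authors' deposited table (log2 of KO over OE -0.84, q-value 0.131). PIP2 genes resemble each other in sequence and can share reads, so the low members of the cluster are uncertain.

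**Figure D1:**
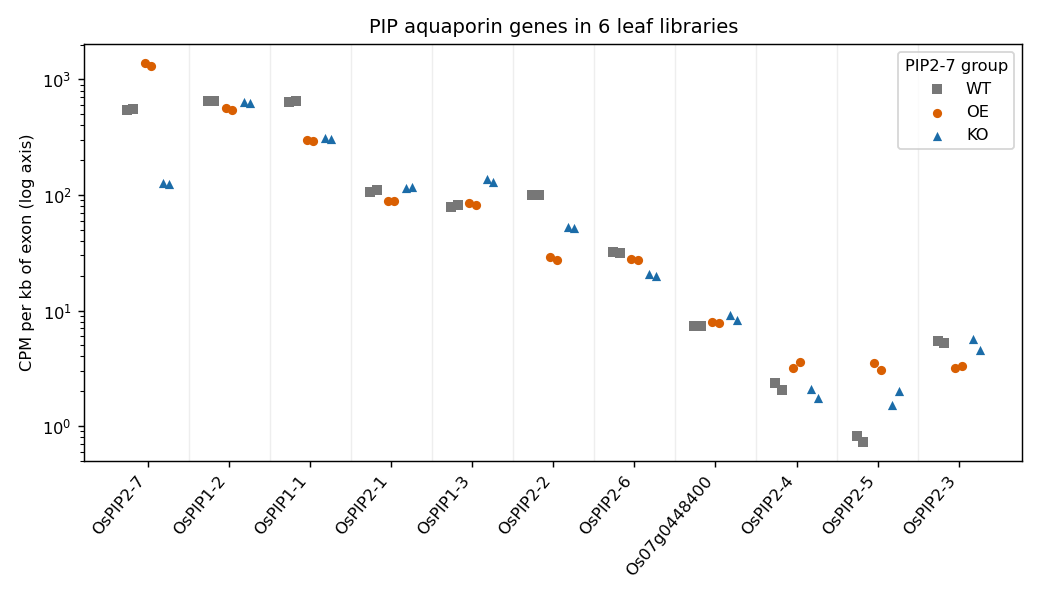
CPM per kb of exon (log axis) of the 11 PIP genes tested, 2 libraries each for WT (grey squares), OE (orange circles) and KO (blue triangles) of the PIP2-7 experiment, ordered by level in OE. OsPIP2-7 runs from 126 CPM per kb on average in KO to 1346 in OE, while the other genes differ by less than 2-fold between OE and KO.

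TIP and NIP genes were called in both directions. Of 22 annotated TIP and NIP genes, 14 were tested, with 6 higher in OE and 6 higher in KO and a median log2 difference of 0.27. The share was 42.9% in each direction, against 28.4% and 29.6% of all genes tested. Of the 14, 2 passed the filter on low counts only through the OE libraries and 0 only through KO. The counts and the median are thus a description only. OsTIP1-2 had 30.4 and 31.7 CPM in OE, 131.8 and 126.5 CPM in KO and 356.7 and 364.6 CPM in WT. All 3 groups were apart, with OE lowest, and the OE to KO difference was -2.06 (SE 0.04, edgeR adjusted p = 2.12e-37). OsTIP2-2 followed the same order at 58.9 and 60.5 CPM in OE, 96.7 and 94.5 CPM in KO and 292 and 281 CPM in WT (log2 -0.68, SE 0.04, edgeR adjusted p = 4.50e-20). LSI6, a silicic acid channel of leaf blades and nodes, had 5.90 and 4.99 CPM in OE and 11.9 and 11.9 CPM in KO (log2 -1.13). OsTIP4-3 was at 3.20 and 3.47 CPM in OE and at 0.229 and 0.347 CPM in KO (log2 3.52, SE 0.32, edgeR adjusted p = 5.59e-13). OsTIP1-1 differed by only -0.09.

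Across all genes, 13713 were called between the lines, 6710 higher in OE and 7003 higher in KO, while 9914 did not pass. Most of these differences were small: the median absolute log2 of the called genes was 0.53. A difference of at least 2-fold was reached by 3878 called genes (16.4% of those tested), of which 1917 (8.11%) were higher in OE and 1961 (8.30%) in KO. In 13687 of the called genes the OE and KO libraries did not overlap, which a call with 2 close replicates per line largely fixes. The share over all genes tested is not given here, so this adds no support to the calls. Transcript levels in whole leaves do not separate fewer cells of a type from less RNA per cell, which holds for every difference given here.

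**Figure D2:**
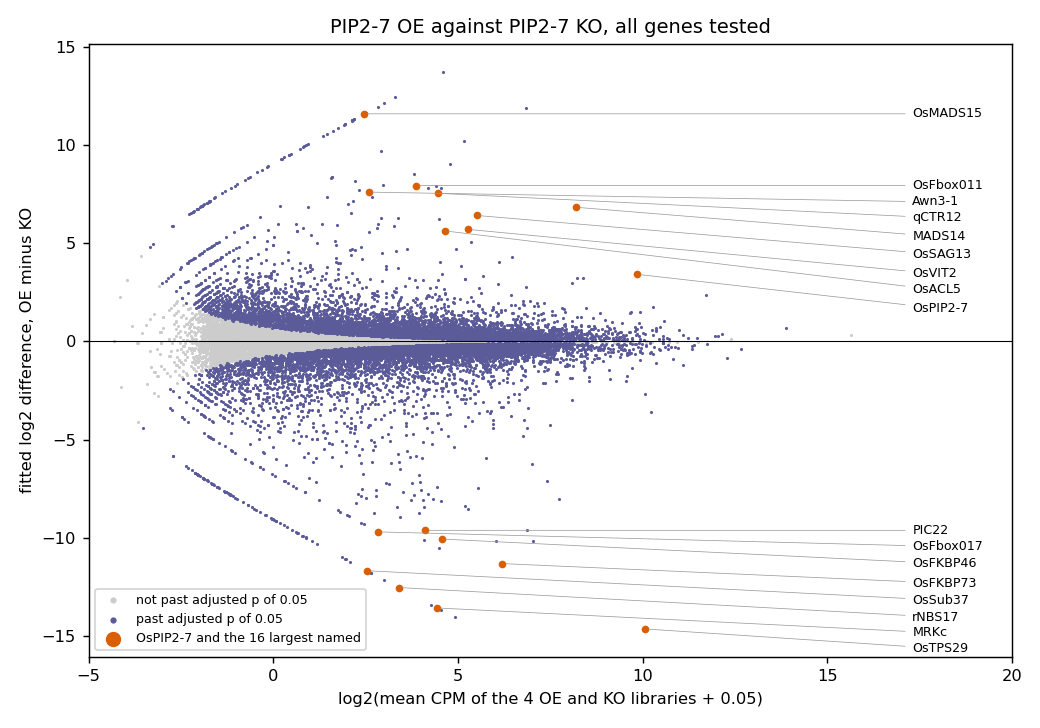
Fitted log2 difference (OE minus KO) of the 23627 genes tested against log2 of their mean CPM over the 4 libraries plus 0.05, with called genes in dark blue and others in grey. OsPIP2-7 and the 16 named genes with the largest differences are orange; fitted values of genes with a line at 0 depend on the fit's prior count, and the diagonal rims are such genes.

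The 8 largest differences among named genes higher in OE included a pair of related flowering regulators. MADS14, a MADS-box factor that promotes flowering and specifies the floral meristem, was at 622.8 and 544.5 CPM in OE and at 4.92 and 5.36 CPM in KO, with 7.06 and 6.99 CPM in WT. Only the OE libraries were high, and OE exceeded KO by 6.83 on the log2 scale (SE 0.08, 113-fold, edgeR adjusted p = 2.31e-16). OsMADS15, its close relative, had 10.2 and 11.6 CPM in OE, no count in KO and 0 and 0.0575 CPM in WT. Against a floor of 3 counts over the KO pair it was at least 253-fold higher in OE (edgeR adjusted p = 3.24e-25).

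OsVIT2, a transporter that moves iron into the vacuole, was at 77.5 and 74.2 CPM in OE and at 1.29 and 1.62 CPM in KO, with 2.01 and 1.67 CPM in WT. OE was again the line that stood apart (log2 5.70, SE 0.09, edgeR adjusted p = 4.35e-40). OsACL5, named for a thermospermine synthase of Arabidopsis, was at 48.0 and 50.3 CPM in OE and at 1.12 and 0.869 CPM in KO (log2 5.62, SE 0.11, edgeR adjusted p = 1.02e-36).

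For the other 4 genes KO was the low line, near 0. OsSAG13, named as a senescence-associated gene, was at 89.6 and 89.7 CPM in OE, at 86.8 and 83.7 CPM in WT and at only 1.29 and 0.811 CPM in KO (log2 6.41, SE 0.09, edgeR adjusted p = 3.71e-43). The F-box gene OsFbox011 was at 29.5 and 28.4 CPM in OE, at 21.5 and 23.2 CPM in WT and at 0.229 and 0 CPM in KO (log2 7.93, SE 0.20, edgeR adjusted p = 2.70e-31). Awn3-1 had 12.1 and 11.6 CPM in OE, 15.14 and 16.99 CPM in WT and 0.115 and 0 CPM in KO (log2 7.60, SE 0.28, edgeR adjusted p = 5.74e-27). The last, qCTR12, had 42.1 and 44.8 CPM in OE, 18.4 and 17.9 CPM in WT and 0.258 and 0.203 CPM in KO (log2 7.54, SE 0.14, edgeR adjusted p = 1.29e-37).

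The 8 largest differences in the other direction all belonged to genes that were near or at 0 in OE and in WT and expressed in KO. OsTPS29, a terpene synthase gene (Os08g0139700, chromosome 8, 2210027 to 2213892, minus strand, 6 exons), stood at 2109 and 2178 CPM in KO, at 0.112 and 0.0525 CPM in OE and at 0.217 and 0.288 CPM in WT. The log2 difference was -14.62 (SE 0.07, edgeR adjusted p = 1.18e-60), the largest in absolute terms among the genes tested. MRKc had 43.1 and 42.7 CPM in KO and no count in OE, so it was at least 1053-fold higher in KO. rNBS17, named for the nucleotide-binding site of resistance proteins, had 20.53 and 21.23 CPM in KO and no count in OE or WT, at least 512-fold higher. OsSub37, a subtilisin-like protease gene, had 11.7 and 11.4 CPM in KO and no count in OE, at least 283-fold higher.

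A pair of FKBP genes, which encode immunophilin-type prolyl isomerases, lay near each other on chromosome 1, from 21415022 and from 21525509, and were both in this group. OsFKBP73 was at 147.3 and 143.9 CPM in KO and at 0.0562 and 0.0525 CPM in OE (log2 -11.30, SE 0.12, edgeR adjusted p = 4.18e-47). OsFKBP46 was at 45.9 and 48.0 CPM in KO and at 0.0843 and 0 CPM in OE, a KO to OE ratio of 1152 with a 95% exact interval for counting error of 394 to 5591. OsFbox017, on the same chromosome, had a ratio of 1039 (interval 186 to 41077), and PIC22 on chromosome 4 a ratio of 847 (interval 289 to 4110).

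**Figure D3:**
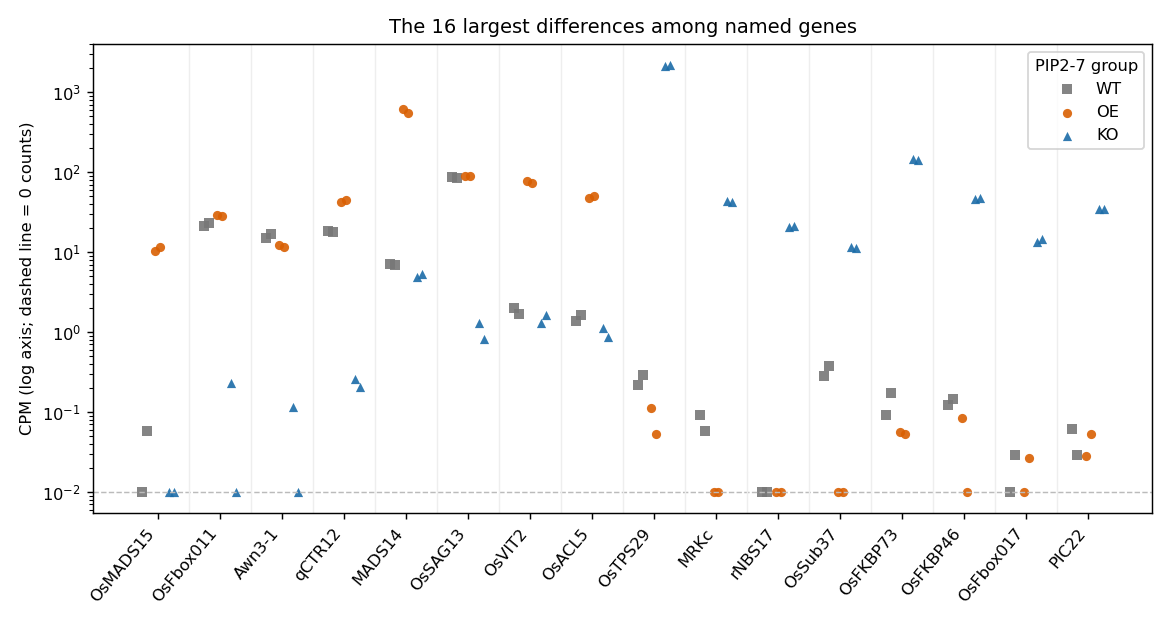
CPM (log axis) in each of the 6 libraries for the 8 named genes most in favour of OE (left) and the 8 most in favour of KO (right); points on the dashed line had no count. For OsFbox011, Awn3-1 and OsSAG13 the WT points lie beside the OE points, and for qCTR12 they lie below them at 18.4 and 17.9 CPM. For the 8 genes on the right both WT and OE points lie near 0. WT reaches at most 0.374 CPM there, in OsSub37, above OE points that had no count.

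Some genes were detected in only 1 of the lines. At most 3 counts over the OE pair with a mean of at least 5 CPM in KO were found for 30 genes (0.127% of those tested), and the reverse for 26 (0.110%). In 21 of the 30 and in 18 of the 26 the WT pair also had at most 3 counts. Of the 30 silent in OE, 10 lay on chromosome 1, 7 on chromosome 4 and 5 on chromosome 3. The shares of all tested genes on these chromosomes were not counted, so no concentration can be read from this. A name is carried by 12 of the 30, among them OsTPS3, another terpene synthase, JMT-2, named for jasmonate methyltransferase, and OsCEP6. Of the 26 silent in KO only OsMADS15 and OsbHLH019 have a name. The highest of these was Os03g0411900, with a mean of 48.0 CPM in OE, 52.3 CPM in WT and no count in KO, at least 1112-fold higher in OE. The highest in the other set was Os10g0381601, with a mean of 59.8 CPM in KO and no count in OE or WT, at least 1468-fold higher in KO.

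Differences of at least 2-fold were not spread evenly along the chromosomes. In 364 windows of 1 Mb with at least 20 tested genes, the median share of genes called at 2-fold or more was 15.7%, and 25 windows exceeded 30%. The highest share was on chromosome 5 from 15 to 16 Mb, where 26 of 55 genes (47.3%) reached it, 20 of them higher in OE. Chromosome 4 from 1 to 2 Mb, the window of OsSub37, followed with 17 of 37 genes (45.9%), and chromosome 4 from 7 to 8 Mb, the window of rNBS17, with 14 of 31 (45.2%). The window of OsFbox017, on chromosome 1 from 20 to 21 Mb, had 20 of 47 (42.6%). These windows were picked by their share, which is given as a description without a test.

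More genes of the switch from vegetative growth to flowering were higher in OE than in KO. Of 12 floral transition genes tested, 7 were higher in OE, 6 of them at least 2-fold, and 3 were higher in KO, with a median log2 difference of 0.83. Those shares were 58.3% and 25.0%, against 28.4% and 29.6% of all genes tested, and 8.11% of all genes were at least 2-fold higher in OE. Of the 12, 1 passed the filter on low counts only through the OE libraries, so the counts are a description only. HD3A, a florigen gene whose protein moves from leaves to the shoot apex, was at 4.64 and 3.97 CPM in OE, at 0.0286 and 0.232 CPM in KO and at 0.403 and 0.575 CPM in WT (log2 5.01, SE 0.36, edgeR adjusted p = 3.28e-16). It was low in every library, but OE and KO did not overlap.

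MADS18, a further relative of MADS14, was at 196 and 201 CPM in OE, at 29.5 and 29.4 CPM in KO and at 39.6 and 36.4 CPM in WT (log2 2.75, SE 0.04, edgeR adjusted p = 3.44e-41). OsMADS56, which delays flowering in long days, was higher in OE as well, at 78.2 and 75.8 CPM against 29.0 and 28.4 CPM in KO (log2 1.42, SE 0.05, edgeR adjusted p = 3.25e-28). OsCOL4, a repressor of flowering, was lower in OE, at 9.19 and 9.22 CPM against 50.8 and 51.4 CPM in KO and 57.0 and 65.1 CPM in WT (log2 -2.47, SE 0.07, edgeR adjusted p = 1.80e-31). So was OsMADS50, a promoter of flowering, at 22.5 and 21.6 CPM against 50.8 and 52.2 CPM (log2 -1.22, SE 0.06). EHD2 and MADS51 were higher in OE with log2 differences of 2.19 and 0.24, HD6 was higher in KO with -0.11, and GHD7 (log2 -0.43) and EHD3 (log2 -0.11) did not pass.

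**Figure D4:**
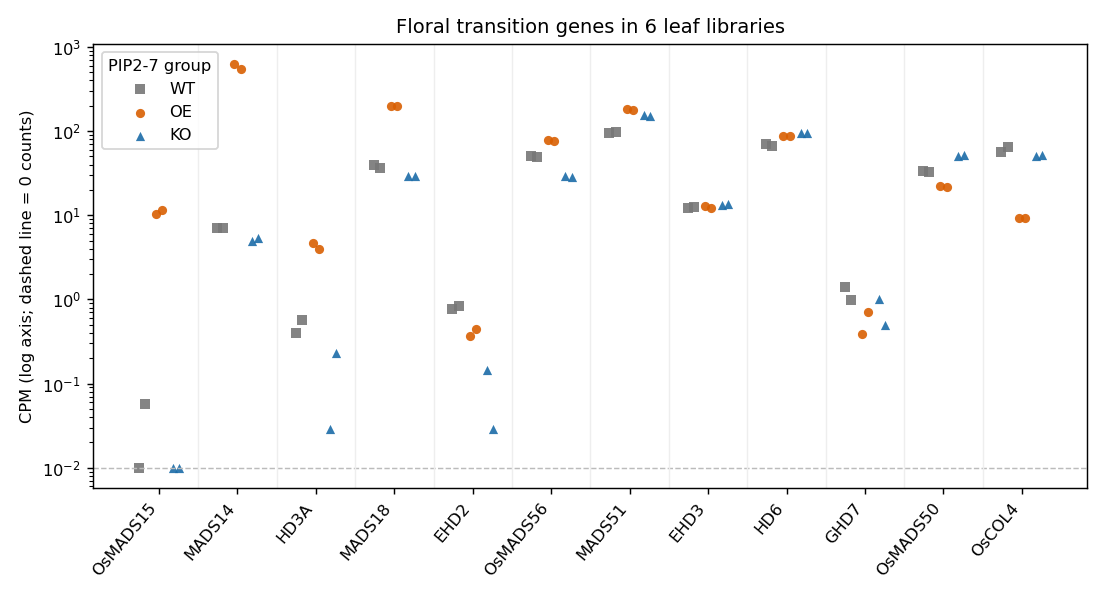
CPM (log axis) of the 12 floral transition genes in each library of the PIP2-7 experiment, ordered by the OE to KO difference; points on the dashed line had no count. MADS14 at 622.8 and 544.5 CPM and MADS18 at 196 and 201 CPM in OE stand above both other groups, and OsCOL4 at 9.19 and 9.22 CPM in OE stands below them.

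Markers of floral organs were scarcely detected. Of 8 such genes with a name, 2 were tested and 1, OsMADS2, was higher in KO, a call lost without OE replicate 1 or KO replicate 1. The other 6 had between 0 and 9 counts summed over the OE or KO pair, and OsMADS13 had none in all 6 libraries. The summed level of the 2 tested was 6.58 and 8.25 CPM in OE, 10.4 and 9.03 CPM in KO and 6.16 and 6.07 CPM in WT.

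Of 11 clock genes, 10 were higher in OE and 0 higher in KO (1 without OE replicate 2), and the median log2 difference was 0.55. As shares these are 90.9% and 0%, against 28.4% and 29.6% of all genes tested. The smallest p was that of OsPRR95, a pseudo-response regulator, with 2026 and 2046 CPM in OE, 984.5 and 1010 CPM in KO and 872.8 and 855.8 CPM in WT (log2 1.03, SE 0.03, edgeR adjusted p = 1.70e-33). OE stood apart there, but for CCA1, a morning-phased repressor, WT was highest, with 362.5 and 366.8 CPM in OE, 251.7 and 245.6 CPM in KO and 507.0 and 507.9 CPM in WT (log2 0.55, SE 0.03, edgeR adjusted p = 2.21e-21). OsPRR59 (log2 0.57) and FKF1, a blue-light receptor F-box protein (log2 0.63), were also higher in OE, and GI differed by 0.19. Genes of opposite phase, such as CCA1 and OsPRR1 (log2 0.50), were thus both higher in OE. The largest difference was that of LHY, at 0.450 and 0.368 CPM in OE and 0.0859 and 0.0869 CPM in KO (log2 2.19, SE 0.67, edgeR adjusted p = 0.00476). LHY had few counts in both lines, so its difference is uncertain. Of the 11 clock genes, 1 passed the filter on low counts only through the OE libraries. The labels give no time of day, so a difference in sampling time between the lines cannot be told apart from a difference between the lines.

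Genes of chlorophyll metabolism differed by less than 2-fold between OE and KO, with a single large exception. Of 8 chlorophyll breakdown genes, 4 were higher in OE and 4 in KO (median log2 -0.02). Thus 100% of this list was called, against 58% of all genes tested. The exception was OsRCCR2, a red chlorophyll catabolite reductase, at 1.94 and 1.31 CPM in OE, 34.6 and 33.8 CPM in KO and 0.681 and 0.575 CPM in WT (log2 -4.40, SE 0.12, edgeR adjusted p = 4.46e-32). SGR, the stay-green gene, was high in both lines at 159 and 155 CPM in OE and 106.1 and 107.9 CPM in KO, beside 4.09 and 4.40 CPM in WT, and OE exceeded KO by only 0.55 (SE 0.04, edgeR adjusted p = 5.86e-18). NYC1, a chlorophyll b reductase, was higher in OE by 0.63. Of 13 chlorophyll synthesis genes, 8 did not pass, 3 were higher in OE and 2 in KO, and the largest difference was -0.71 for GUN4. The 38.5% called in that list is below the 58% of all genes.

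The antenna protein genes CAB2R, CAB1R and Lhcb1.1 were higher in KO, while the wider photosystem list was mixed. CAB2R was at 1330 and 1310 CPM in OE, 3090 and 3029 CPM in KO and 5832 and 6024 CPM in WT (log2 -1.21, SE 0.02, edgeR adjusted p = 1.02e-36). CAB1R (log2 -0.86) and Lhcb1.1 (log2 -0.93) had the same order, with OE lowest and WT highest. Of 25 nuclear photosystem and antenna genes tested, 8 were higher in OE and 10 in KO (median log2 -0.04), and the list's summed level was 17825 and 18225 CPM in OE against 24153 and 23749 CPM in KO. The shares were 32.0% and 40.0%, against 28.4% and 29.6% of all genes tested. Rubisco small subunit and Calvin cycle genes leaned the other way, with 6 of 9 higher in OE and 2 higher in KO (1 without OE replicate 2; median log2 0.26). That is 66.7% and 22.2% of this list, against 28.4% and 29.6% of all genes tested. Of the 9, 1 passed the filter on low counts only through the OE libraries. RbcS5 was at 2416 and 2465 CPM in OE and at 1605 and 1600 CPM in KO (log2 0.61, SE 0.02, edgeR adjusted p = 3.69e-25), while OsSBP was higher in KO (log2 -0.61). OsSBP is a short gene of 1 exon, from 33727087 to 33727811 on chromosome 2. Whether it encodes a Calvin cycle enzyme was not checked. Rubisco small subunit genes are near-identical copies that can share reads.

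A pair of ferritin genes, which encode the iron storage protein, were higher in OE. FER2, a ferritin of the plastid, was at 609.6 and 607.1 CPM in OE, 65.5 and 63.9 CPM in KO and 386.2 and 373.3 CPM in WT (log2 3.23, SE 0.03, 9.41-fold, edgeR adjusted p = 1.58e-48). OsFER1, its near-identical copy in the duplicated ends of chromosomes 11 and 12, was at 536.5 and 534.9 CPM in OE and at 60.2 and 55.5 CPM in KO (log2 3.21, SE 0.04, edgeR adjusted p = 4.44e-47), and shared reads make the split between the copies uncertain. KO was lowest for both. Together with OsVIT2 they belong to a list of 56 metal transport and storage genes, of which 25 were higher in OE, 17 of them at least 2-fold, and 18 were higher in KO, 3 at least 2-fold (median log2 0.17, or 0.40 without the filter on low counts). The shares were 44.6% and 32.1%, against 28.4% and 29.6% of all genes tested. The filter was passed only through the OE libraries by 5 of the 56 and only through KO by 1, so the counts are a description only. Members of the zinc and iron transporter family ZIP were among those higher in OE, with a log2 difference of 1.65 for OsZIP7 and 1.90 for OsZIP10, both at under 5 CPM.

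Metallothioneins, small cysteine-rich proteins that bind metals, split into separate sets. Of 13 tested, 8 were higher in KO and 4 in OE (median log2 -0.60). These are 61.5% and 30.8%, against 29.6% and 28.4% of all genes tested. The 5 with the largest differences in favour of KO lie together on chromosome 12. MTI4C had 1.71 and 1.39 CPM in OE, 38.5 and 36.7 CPM in KO and 22.4 and 21.9 CPM in WT (log2 -4.60, SE 0.10, edgeR adjusted p = 8.72e-35), and its neighbours OsMT1c, OsMT1g, OsMT1f and MT1Ld gave -5.11, -5.01, -4.31 and -3.62. OE was the low line in each. These neighbours are similar in sequence and may share reads. OsMT2b went the other way, at 467 and 494 CPM in OE, 59.0 and 61.9 CPM in KO and 180 and 179 CPM in WT (log2 2.99, SE 0.04, edgeR adjusted p = 6.39e-46). OsMT1b was at 356.6 and 342.4 CPM in OE and at 123.0 and 125.5 CPM in KO, with 4.06 and 3.71 CPM in WT (log2 1.49, SE 0.03, edgeR adjusted p = 2.00e-35). OsMT3a did not pass (log2 0.32, SE 0.11, edgeR adjusted p = 0.0900).

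Among 47 genes of nitrogen uptake and recycling, 20 were higher in OE and 18 in KO (median log2 0.08). The shares were 42.6% and 38.3%, against 28.4% and 29.6% of all genes tested. The ammonium transporter genes AMT3 (Os03g0838400) and OsAMT3 (Os02g0550800) were higher in KO. AMT3 was at 3.40 and 3.81 CPM in OE, 49.7 and 46.1 CPM in KO and 1.36 and 1.84 CPM in WT (log2 -3.73, SE 0.09, edgeR adjusted p = 1.62e-33), and OsAMT3 at 13.44 and 13.95 CPM in OE and 53.1 and 51.5 CPM in KO (log2 -1.93, SE 0.06, edgeR adjusted p = 1.62e-28). KO alone was high for both. NRT2.4, a nitrate transporter gene, was high in OE, at 91.8 and 89.7 CPM against 29.9 and 29.3 CPM in KO (log2 1.62, SE 0.05, edgeR adjusted p = 3.78e-30).

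Terpene synthases make volatile terpenes and the diterpene precursors of rice phytoalexins and gibberellins. Of 24 annotated, 14 were tested, 9 were higher in KO, each at least 2-fold, and 3 were higher in OE. Those are 64.3% and 21.4% of the 14, against 29.6% and 28.4% of all genes tested. Of the 14, 8 passed the filter on low counts only through the KO libraries and 1 only through OE, which favours members that differ, so the counts are a description only. The median log2 difference was -3.97 over the 14, the same with genes at 0 counts set to their bound, and -2.50 over the 19 members with any count when no filter was used. Beside OsTPS29, the synthases TPS (Os08g0167800) and OsTPS3 were at 9.88 and 10.6 CPM and at 7.50 and 7.73 CPM in KO. TPS had a KO to OE ratio of 755 (95% exact interval 135 to 29855), and OsTPS3, without a count in OE, was at least 187-fold higher in KO. OsCPS4 and OsKS4, which act in momilactone synthesis, reached only 1.52 and 1.56 CPM and 0.544 and 0.434 CPM in KO, with 1 count over the OE pair each. OsKS6 was the largest of the exceptions, at 1.35 and 1.81 CPM in OE and 0.0286 and 0.0869 CPM in KO (log2 4.70, SE 0.50, edgeR adjusted p = 4.20e-11). The summed level of the list was 22.2 and 23.4 CPM in OE and 2148 and 2222 CPM in KO, of which OsTPS29 made up nearly all.

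Of 29 pathogenesis-related protein and chitinase genes tested, 17 were higher in KO, 16 of them at least 2-fold, and 7 were higher in OE. Those are 58.6% and 24.1%, against 29.6% and 28.4% of all genes tested. Of all genes, 8.30% were at least 2-fold higher in KO. The filter was passed only through the KO libraries by 6 of the 29 and only through OE by 1. The median log2 difference was -1.41 over the 29, the same with genes at 0 at their bound, but -0.62 over the 39 members with any count when no filter was used. RSOsPR10 was at 0.899 and 1.13 CPM in OE, 38.3 and 37.3 CPM in KO and 7.53 and 6.07 CPM in WT (log2 -5.21, SE 0.12, edgeR adjusted p = 3.96e-34). Cht11, a chitinase, was at 5.23 and 4.62 CPM in OE and at 72.8 and 70.1 CPM in KO (log2 -3.86, SE 0.07, edgeR adjusted p = 7.00e-38), and OsPR10a followed with -3.23. KO was the high line for these 3. Those higher in OE included Cht4(t)*(Chi4) and OsPR2 (Os01g0944700), with log2 differences of 2.51 and 2.17, both at under 5 CPM in OE and KO and near 40 CPM in WT (38.6 and 37.1, and 44.2 and 41.9).

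Of 8 genes for Rboh NADPH oxidases, which make superoxide outside the cell, 5 were higher in KO and 1 in OE (median log2 -0.76). The shares were 62.5% and 12.5%, against 29.6% and 28.4% of all genes tested. RbohF was at 0.534 and 0.525 CPM in OE, 32.4 and 31.8 CPM in KO and 2.60 and 3.02 CPM in WT (log2 -5.91, SE 0.14, edgeR adjusted p = 4.67e-34). rbohG was at 1.63 and 2.18 CPM in OE and at 13.3 and 13.5 CPM in KO (log2 -2.81, SE 0.14, edgeR adjusted p = 2.00e-21). RBOHB was the exception, at 176.5 and 172.6 CPM in OE, 42.1 and 41.3 CPM in KO and 130.5 and 128.7 CPM in WT (log2 2.06, SE 0.04, edgeR adjusted p = 2.95e-38). The list's summed level was nevertheless higher in OE, at 315 and 307 CPM against 263 and 261 CPM, since RBOHB and rbohE held most of its counts.

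WRKY factors, regulators of defence and senescence, were called in 48 of 70 cases, 21 higher in OE and 27 in KO (median log2 -0.10). These are 30% and 38.6% of the list, the first close to the 28.4% of all genes higher in OE and the second above the 29.6% higher in KO. OsWRKY104 was at 2.05 and 1.31 CPM in OE, 426.2 and 428.3 CPM in KO and 10.65 and 11.04 CPM in WT (log2 -8.0, SE 0.06, edgeR adjusted p = 3.24e-52). OsWRKY95 was at 2.698 and 2.154 CPM in OE and at 333.4 and 336.2 CPM in KO (log2 -7.11, SE 0.06, edgeR adjusted p = 2.08e-51). They lie in the duplicated ends of chromosomes 11 and 12, so reads may be shared between them. Of 58 NAC factors, 26 were higher in OE and 17 in KO (median log2 0.16), while the 3 with the smallest p, ONAC103, NAC95 and ONAC036, were higher in KO with log2 differences of -1.77, -2.12 and -1.11. The NAC shares were 44.8% and 29.3%, the first above the 28.4% of all genes higher in OE and the second close to the 29.6% higher in KO. Of 40 class III peroxidases, 10 were higher in OE (5 with DESeq2, 6 without KO replicate 1) and 14 in KO (median log2 0.02, or 0.37 over the 94 with any count when no filter was used). The 60.0% called is near the 58% of all genes. The smallest p was that of prx20, at 5.82 and 4.68 CPM in OE and 30.6 and 28.2 CPM in KO (log2 -2.49, SE 0.09, edgeR adjusted p = 2.32e-27). The largest difference was that of prx62, at 0.0281 and 0 CPM in OE and 0.630 and 0.753 CPM in KO, a KO to OE ratio of 50.9 with a 95% exact interval of 8.71 to 2051.

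Stress and nutrient lists held genes higher in each line. Of 49 heat shock protein and factor genes, 22 were higher in OE and 13 in KO (median log2 0.08), with OsHSP18.0-CIII at 2.29 and OsHSP70 (Os03g0821100) at -0.82. The shares were 44.9% and 26.5%, against 28.4% and 29.6% of all genes. Of 52 phosphate starvation genes, 16 were higher in OE, such as OsSPX-MFS2 (log2 1.09), and 19 in KO, such as the phosphate transporter gene PT1 (log2 -1.38), with a median of -0.08. These are 30.8% and 36.5% of that list, against 28.4% and 29.6% of all genes. Of 31 genes of abscisic acid response and dehydration proteins, 12 were higher in each line (median log2 -0.03, or 0.13 without the filter on low counts). That is 38.7% in each direction, against 28.4% and 29.6% of all genes. In that list the kinase gene SAPK1 was at 106.6 and 110.3 CPM in OE and 28.0 and 27.7 CPM in KO (log2 1.96, SE 0.05, edgeR adjusted p = 3.73e-34), and OsLEA9, a late embryogenesis abundant protein gene, at 9.58 and 9.20 CPM in OE and 43.2 and 39.3 CPM in KO (log2 -2.14, SE 0.07, edgeR adjusted p = 1.51e-29). Of 45 expansin, xyloglucan and cellulose synthase-like genes, 14 were higher in OE (8 with DESeq2, 9 without OE replicate 2) and 11 in KO (median log2 0.16), with OsCslH3 at -1.83 and OsCslH1 at 1.00. The 55.6% called in that list is near the share in all genes.

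**Figure D5:**
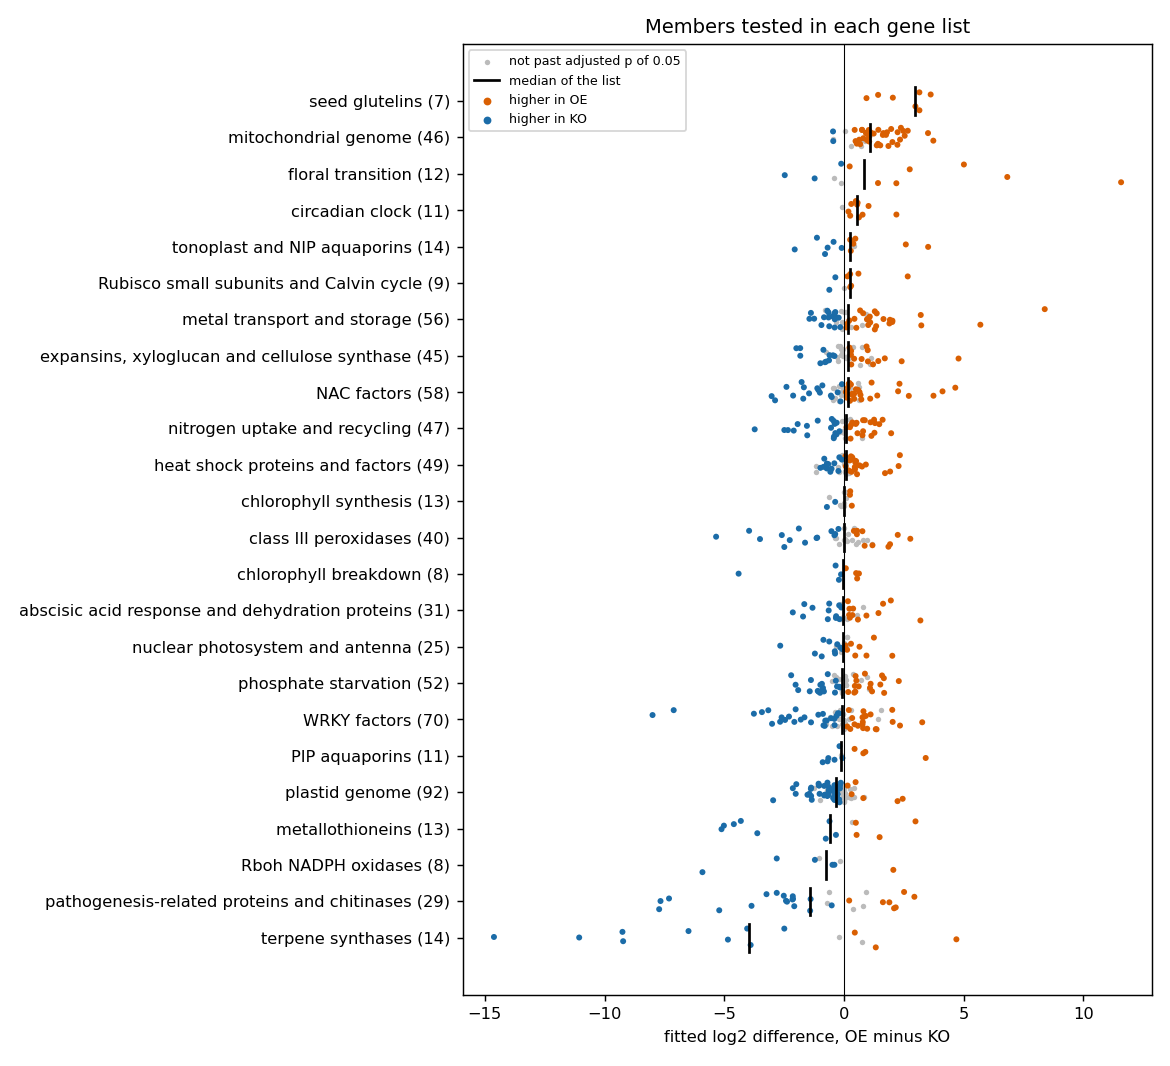
Fitted log2 difference (OE minus KO) of each tested member of the 24 gene lists with at least 3 tested members, the number tested in parentheses; orange and blue points passed the test, grey points did not, and the black bar is the list's median. Medians run from -3.97 for terpene synthases to 2.99 for seed glutelins.

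Genes that are not typical of leaf cells, and those of the organelle genomes, also differed. All 7 seed glutelin genes, which encode the storage proteins of the endosperm, were higher in OE (median log2 2.99), against 28.4% of all genes tested. Of the 7, 1 passed the filter on low counts only through the OE libraries. The summed level of the 7 genes was 61.4 and 61.6 CPM in OE, 16.8 and 18.8 CPM in KO and 16.7 and 15.3 CPM in WT. Glua1 (Os01g0762500) was at 16.4 and 17.7 CPM in OE and at 3.72 and 4.55 CPM in KO (log2 2.04, SE 0.11, edgeR adjusted p = 3.62e-20). The copies named GluB1 (Os02g0249800 and Os02g0249900) gave 3.15 each and share reads. The root marker RCc3 was at 2.50 and 2.84 CPM in OE and at 1.83 and 1.39 CPM in KO (log2 0.73, not past the test without OE replicate 2 or KO replicate 2), and the secondary wall cellulose synthase genes OsCesA4 and CESA7 summed to 1.60 and 1.89 CPM in OE and 0.973 and 0.550 CPM in KO, with 1 of the 2 called. What these markers contribute to the other differences was not tested.

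Transcripts of the mitochondrial genome took 0.0269% and 0.0280% of counts in the OE libraries, 0.0145% and 0.0145% in KO, and 0.0124% and 0.0118% in WT. Of 46 mitochondrial genes tested, 37 were higher in OE and 2 in KO (median log2 1.10), such as atp9, a subunit of ATP synthase, at 22.7 and 23.2 CPM in OE and 5.98 and 6.66 CPM in KO (log2 1.86, SE 0.09, edgeR adjusted p = 1.58e-21). The shares were 80.4% and 4.35%, against 28.4% and 29.6% of all genes tested. Of the 46, 13 passed the filter on low counts only through the OE libraries and 0 only through KO, which favours members that differ. The counts are thus a description only. Without the filter the median was 1.13 over the 93 members with any count. Plastid genes leaned towards KO, with 54.3% of those tested higher in KO and 6.52% higher in OE. They took 0.289% and 0.294% of counts in OE, 0.367% and 0.365% in KO and 0.548% and 0.546% in WT, and of 92 tested 50 were higher in KO and 6 in OE (3 without KO replicate 2; median log2 -0.31). psaA, a core protein of photosystem I, was at 10.37 and 10.96 CPM in OE and 45.9 and 47.9 CPM in KO (log2 -2.13, SE 0.06, edgeR adjusted p = 5.53e-30). Organelle transcripts mostly lack long poly(A) tails, and copies of organelle DNA in the nuclear genome can share their reads, so these shares also carry library preparation and mapping. Their part in the other results was not tested, and leaving organelle genes out gave 13620 called genes.

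The difference between OE and KO was set beside that between the OsPIP2-1 lines of the same study, an overexpression line with a 3xMyc tag and a T-DNA-free knockout, which share no library with the comparison above. In a fit of all 12 libraries the 2 differences were themselves unlike for 13326 of 24556 genes (54.3%). Of the genes tested in the PIP2-7 experiment, 13131 (55.6%) were called between the OsPIP2-1 lines. The 8649 genes called in both comparisons made up 63.1% of the calls for OsPIP2-7 and 65.9% of those for OsPIP2-1, and 4266 of them had the same direction while 4383 had the opposite one. OsPIP2-7 itself was lower in the OsPIP2-1 overexpression line than in its knockout, at 292 and 295 CPM against 935 and 990 CPM, so the differences between overexpression and knockout were 3.42 and -1.71. MADS14 had the same direction in both, at 368 and 360 CPM against 177 and 186 CPM in the OsPIP2-1 lines (log2 1.01), but its difference was smaller there by 5.84 (SE 0.08). MADS14 was chosen for its large difference in the PIP2-7 lines, so this is a description.

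The authors' deposited table of KO against OE was made with another tool. Among the genes tested here, 6888 were significant in the authors' deposited table, 3742 lower in KO and 3146 higher. Of these, 6617 were also called here, 6606 of them in the same direction, and 271 were not called. The remainder of the 13713 genes called here were not significant there or had no test there. Among the named genes with the largest differences, OsFbox011, Awn3-1, OsFbox017 and PIC22 had the same direction there but did not pass. Their q-values were 0.053, 0.053, 0.3798 and 0.3532. The other named genes of that set passed there.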

How the data were processed

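RNA sequencing of leaves gave 12 libraries in 6 groups of 2, taken from the sample titles. The deposited table holds raw read counts per gene. Per the file headers, featureCounts 1.4.0 produced it on IRGSP-1.0 with the Ensembl Plants release 52 annotation, on the reverse strand, with multiply aligned reads counted wherever they aligned. Trim Galore, HISAT2 and Cufflinks are named without versions in the submitters' processing notes. The deposited comparison table gives the authors' log2 fold changes, p-values and q-values from Cuffdiff 2.2.1 (named in the submitters' processing notes) and was used for gene names and for values credited to it. That table shortens names, so aquaporins and OsMADS15 were named by locus.

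The analysis used edgeR 4.0.16 under R 4.3.3 (filterByExpr, TMM, robust glmQLFit and glmQLFTest, Benjamini-Hochberg adjustment over all genes tested, threshold 0.05). The fit held the 6 libraries of the PIP2-7 experiment, in which WT adds to the spread and scaling only, and the OsPIP2-1 lines were compared in a fit of all 12. SEs were back-calculated as the absolute log2 difference over the square root of F. A gene passed the filter only through 1 line where fewer than 2 of the other 4 libraries reached the filter's level. This held for 958 genes through OE and 763 through KO among the 23627 tested, some of them members of other lists. At the smallest total, 1 CPM before scaling is 32.7 counts. Folds against a pair at 0 are bounds from 3 counts over the pair, for pairs with 1 to 3 counts the ratio is given with its 95% Clopper-Pearson (exact) interval, and both cover counting error only. Replicates differed by more than sampling noise (chi-square over its degrees of freedom, 2.50 to 3.46), and each library was kept as its own replicate. Replicate numbers did not pair the libraries (correlations of replicate deviations 0.02, -0.02 and -0.01). On simulated counts for this comparison (23627 genes) the fit recovered 85.1% of 1.5-fold changes, 97.0% of 2-fold changes and 100% of 4-fold changes, and 6.93% of its calls were false. Only 67, 67 and 66 genes were changed by these folds, all with a mean above 1 CPM, and the scatter was drawn from the fit itself. These rates therefore do not carry over to the data, where 58% of genes were called.

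Named genes were all tested PIP genes, the 8 largest differences each way among called genes that carry a name, average at least 5 CPM and show no overlap of libraries, and up to 3 members by smallest p of each list with at least 3 called. Other genes were named after their values were seen. The comparison and the 27 gene lists were chosen with earlier results of these data known, and several lists were trimmed once the names had been read. An item of the floral transition list is not reported here and was left out of its counts. The alternatives tried were DESeq2 1.42.0, RLE scaling, all genes without filtering, the 4 libraries alone, all 12 libraries, the replicate number as a block, nuclear genes only and each library left out in turn.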

Additional observations from a re-analysis of the deposited data

Results flagged for a closer look

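For 14 of the 17 genes that are OsPIP2-7 and the 16 largest differences among named genes, the difference between overexpression and knockout was unlike that in the OsPIP2-1 lines, by edgeR's test of that difference over all 12 libraries, as it was for 54.3% of all genes. These genes were chosen for their large differences in the PIP2-7 lines, which largely fixes that outcome, so the values are a description. The values below are log2 differences in the PIP2-7 lines minus those in the PIP2-1 lines. They were 5.15 for OsPIP2-7, 9.74 for OsMADS15, 7.78 for OsFbox011, 8.16 for Awn3-1, 7.44 for qCTR12, 5.84 for MADS14, 6.03 for OsSAG13, 6.34 for OsVIT2 and 3.47 for OsACL5. For genes higher in the PIP2-7 knockout they were -15.96 for OsTPS29, -16.01 for MRKc, -17.33 for OsFKBP73, -10.83 for OsFKBP46 and -15.48 for PIC22. Where a pair of libraries had no count (OsMADS15, MRKc, OsFKBP73, PIC22), the fitted value depends on the prior count and is no bound.

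Levels in the PIP2-1 lines place these values. OsSAG13 was at 110 and 111 CPM in the PIP2-1 overexpression line and at 79.1 and 89.6 CPM in its knockout, and qCTR12 at 79.1 and 75.9 CPM and at 72.1 and 71.6 CPM, so neither was near 0 there. OsTPS29 was below 0.2 CPM in those 4 libraries. The other 3 genes, rNBS17, OsSub37 and OsFbox017, gave no usable test because pairs of libraries had no count: OsSub37 had none in the PIP2-7 and PIP2-1 overexpression lines, and rNBS17 and OsFbox017 none in any of those 4 libraries.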

How the results depend on the processing

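The count of 13713 called genes was 13728 with RLE scaling, 13822 without the filter on low counts, 11038 with DESeq2, 13721 on the 4 libraries alone, 13479 on all 12, and between 12053 and 12146 with a library left out. OsPIP2-7 and the 16 largest differences among named genes kept their direction under each alternative that gave a value. Under DESeq2, 11036 of the called genes were called again, all in the same direction.

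With the replicate number as a block, 13616 genes were called. OsPIP1-1 missed the threshold there at a log2 difference of -0.063, as it did with RLE scaling (-0.059), DESeq2 (-0.059), the 4 libraries alone (-0.064) and all 12 (-0.047). With a library left out it ranged from -0.084 to -0.049 and passed only without OE replicate 1.

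DESeq2 called 5 of the peroxidase genes and 8 of the expansin, xyloglucan and cellulose synthase genes higher in OE. With a library left out, those counts ranged from 6 to 10 and from 9 to 12. In the same fits the members higher in KO numbered 0 to 1 for floral organ markers, 0 to 1 for clock genes, 1 to 2 for Rubisco and Calvin cycle genes and 11 to 14 for NAC factors, and those higher in OE 0 to 1 for RCc3 and 3 to 5 for plastid genes. With alternatives chosen after seeing the data, 49 genes rather than 30 were at or below a floor of 10 counts over the OE pair, and 8 rather than 26 were at the floor in KO when the other line had to reach 10 CPM.

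Lists of few tested genes, and genes with few counts, set the limits: the floor of 3 counts over a pair is 0.0407 CPM in OE and 0.0432 CPM in KO. Without the filter the median log2 difference was -2.50 rather than -3.97 for terpene synthases, -0.62 rather than -1.41 for pathogenesis-related proteins and chitinases, 0.37 rather than 0.02 for peroxidases, 0.40 rather than 0.17 for metal transport and storage -0.19 rather than -0.10 for WRKY factors, 0.25 rather than 0.16 for expansin and cellulose synthase genes, and 0.13 rather than -0.03 for abscisic acid response genes. The cause of the other shifts was not tested.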
